A study of Mus musculus with 60 samples.

Results

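The 36 genes described here are members of the cell cycle and proliferation machinery, taken as a named list from the 38204 genes of a liver transcriptome study of heavy ion exposure. Their levels came from RNA sequencing of 60 livers, each the left lobe of a male mouse of the inbred strain C3H/HeNCrl, which is prone to liver tumours. Mice were given 0.2 Gy of 56Fe, 16O or 28Si ions when 8 to 10 weeks old, or were left as non-irradiated controls, and 3 mice of each of the 20 groups were sampled at 1, 2, 4, 9 or 12 months, so that each time point has its own mice and its own controls. By their labels the groups differ in the ion, the time and a library code whose first letter follows the treatment. That letter and the treatment cannot be told apart. Beam energy also differed between the ions by the study's methods. All mice carry the same strain background with no transgene. The level of a gene is the sum of the deposited RPKM (reads scaled to the length of the transcript and to the mapped reads of the library) of its transcripts, which allows levels of different genes to be set side by side. RNA came from slices of the lobe with all their cells, so fewer cells of a type and less RNA per cell cannot be told apart.

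Cells leave rest when cyclin D with CDK4, and then cyclin E with CDK2, free E2F factors to switch on the genes of S phase. Origins of replication are licensed by loading the MCM helicase, and cyclin A, cyclin B and CDK1 then carry the cell into mitosis, whose genes are switched on late in the cycle. Hepatocytes of the adult liver divide rarely and enter the cycle after tissue loss, and resident and incoming blood cells can also divide there. The 36 genes were ordered by role into 5 G1/S genes, 9 genes of licensing and the replication fork, 4 genes of nucleotide supply, 10 genes of G2 and mitotic entry, and 8 genes of chromosomes, spindle and checkpoint.

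Promoters of mitotic and of S phase genes are known to carry different elements, and 6 promoters are shown because the values of their genes over time are given further on. Bases -150 to -1 before the RefSeq start of each gene in GRCm38.p6 are given 5′ to 3′ on the gene's strand. Capitals mark the CHR element (TTTGAA or TTCGAA), which holds late genes silent in resting cells, the CCAAT box, and E2F sites, whose letters were TTCCCGC or TTCGCGC, and likewise TTGCCGC or TTGGCGC, all searched on both strands.
Mki67, chr7:135716380-135716529, minus strand: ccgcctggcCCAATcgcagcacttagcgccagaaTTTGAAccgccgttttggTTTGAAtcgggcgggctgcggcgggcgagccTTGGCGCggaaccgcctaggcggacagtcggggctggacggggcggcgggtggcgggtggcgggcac
Top2a, chr11:99024190-99024339, minus strand: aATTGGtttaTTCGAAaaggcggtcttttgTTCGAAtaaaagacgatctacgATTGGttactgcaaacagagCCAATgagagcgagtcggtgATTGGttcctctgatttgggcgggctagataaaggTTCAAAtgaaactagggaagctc
Cdk1, chr10:69352913-69353062, minus strand: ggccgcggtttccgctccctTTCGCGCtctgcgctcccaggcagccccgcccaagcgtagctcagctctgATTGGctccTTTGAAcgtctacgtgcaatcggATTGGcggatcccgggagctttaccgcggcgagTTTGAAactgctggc
Ccnb1, chr13:100786487-100786636, minus strand: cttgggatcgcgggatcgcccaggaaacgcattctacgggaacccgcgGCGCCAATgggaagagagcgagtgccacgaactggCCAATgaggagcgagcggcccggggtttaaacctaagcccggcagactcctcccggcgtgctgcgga
Mcm6, chr1:128359706-128359855, minus strand: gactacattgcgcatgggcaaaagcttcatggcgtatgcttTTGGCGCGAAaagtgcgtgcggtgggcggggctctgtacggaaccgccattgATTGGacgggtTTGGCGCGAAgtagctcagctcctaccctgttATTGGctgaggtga
Pcna, chr2:132253181-132253330, minus strand: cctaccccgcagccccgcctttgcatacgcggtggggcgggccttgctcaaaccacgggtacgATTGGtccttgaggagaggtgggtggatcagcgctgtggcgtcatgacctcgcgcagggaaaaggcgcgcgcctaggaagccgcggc
In the bases shown, CHR elements stood in Mki67, Top2a and Cdk1 and none in the mitotic gene Ccnb1 or in Mcm6 and Pcna. E2F letters stood in Mcm6, Mki67, Cdk1 and Ccnb1 and not in Top2a or Pcna, so neither element divided these genes by role, and all 6 held a CCAAT box. Promoters of 29 of the 36 genes were found in the RefSeq table, searched from 250 bases before to 50 bases after the start. A CHR was found in 13 of the 29 (44.8%), against 19.4% of all 27025 promoters, a CCAAT box in 21 (72.4%, against 37.9%) and an E2F site in 12 (41.4%, against 9.69%). On the other strand the E2F letters read GCGCCAA, which share bases with a CCAAT box where they run on as GCGCCAAT. By role, a CHR was found in 6 of 7 chromosome and spindle promoters, 5 of 7 G2 and mitotic entry promoters, 2 of 7 licensing promoters and 0 of 4 promoters each of the G1/S and nucleotide genes. E2F letters were found in 5 of 7 licensing promoters, 2 of 4 nucleotide, 1 of 4 G1/S, 3 of 7 G2 and mitotic entry and 1 of 7 chromosome and spindle promoters. A match is a run of letters and not a measured binding site.

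Most of the 36 genes were at a low level. The median over the 60 livers was under 0.5 RPKM in 17 genes, between 0.5 and 2 RPKM in 11 and at least 2 RPKM in 8, and 7 genes were listed at 0 in at least 1 liver. Estimated reads behind a value were under 10 in the median liver for 10 genes and over 100 for 7, so that the low mitotic genes carry more counting error than the abundant ones. Among G1/S genes, Cdk4, the kinase of D cyclins, had a median of 9.82 RPKM (5.46 to 14.5) and Cdk2, the kinase of cyclin E, 2.90 RPKM (1.75 to 4.37). The cyclins E themselves were lower, with Ccne1 at 0.955 RPKM (0.179 to 2.65) and Ccne2 at 0.565 RPKM (0.0942 to 1.62), and the S phase transcription factor E2f1 was at 0.399 RPKM (0.143 to 0.777).

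In the licensing group Pcna, the sliding clamp of DNA polymerases, had the highest median of all 36 genes, 11.04 RPKM (4.94 to 15.8). The helicase subunits had medians of 0.699 RPKM for Mcm2, 0.968 RPKM for Mcm3, 0.945 RPKM for Mcm4, 0.566 RPKM for Mcm5, 1.62 RPKM for Mcm6 and 3.95 RPKM for Mcm7, so subunits of 1 complex were spread over a range of levels. The helicase loader Cdc6 (0.103 RPKM) and the helicase activator subunit Gins2 (0.0227 RPKM, listed at 0 in 13 livers) were near the bottom. Of the nucleotide genes, thymidine kinase Tk1 was at 5.92 RPKM (1.54 to 9.90), thymidylate synthase Tyms at 3.75 RPKM (1.51 to 8.004), and the ribonucleotide reductase subunits at 2.48 RPKM for Rrm1 and 0.664 RPKM for Rrm2.

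Genes of G2 and mitotic entry were at 0.611 RPKM or less in the median liver. Aurka, a kinase of the spindle poles, was the highest at 0.611 RPKM, followed by Cdk1, the mitotic kinase, at 0.506 RPKM and the phosphatase gene Cdc25b, whose product activates CDK1, at 0.367 RPKM. Aurkb, the kinase of the chromosomal passenger complex, was at 0.305 RPKM and Chek1, the checkpoint kinase that holds damaged or unreplicated cells before mitosis, at 0.268 RPKM. The cyclins were at 0.287 RPKM for Ccnb1, 0.249 RPKM for Ccna2 and 0.177 RPKM for Ccnb2, while the late-cycle transcription factor Foxm1 was at 0.165 RPKM and polo-like kinase Plk1 at 0.102 RPKM.

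In the chromosome and spindle group, Tedc2, a partner of delta and epsilon tubulin at centrioles, was at 3.37 RPKM (1.83 to 5.997) and the microtubule destabiliser Stmn1 at 1.68 RPKM (0.663 to 4.65). Mki67, the marker used to count cycling cells, was at 0.285 RPKM (0.0855 to 1.68), and Top2a, which untangles sister DNA, at 0.470 RPKM (0.134 to 4.96). The anaphase activator Cdc20 (0.370 RPKM), survivin gene Birc5 (0.332 RPKM), and the spindle checkpoint genes Bub1b (0.189 RPKM) and Bub1 (0.0508 RPKM) were low. The plot of 6 genes by mouse shows how widely single livers of a group spread.

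**Figure D1:**
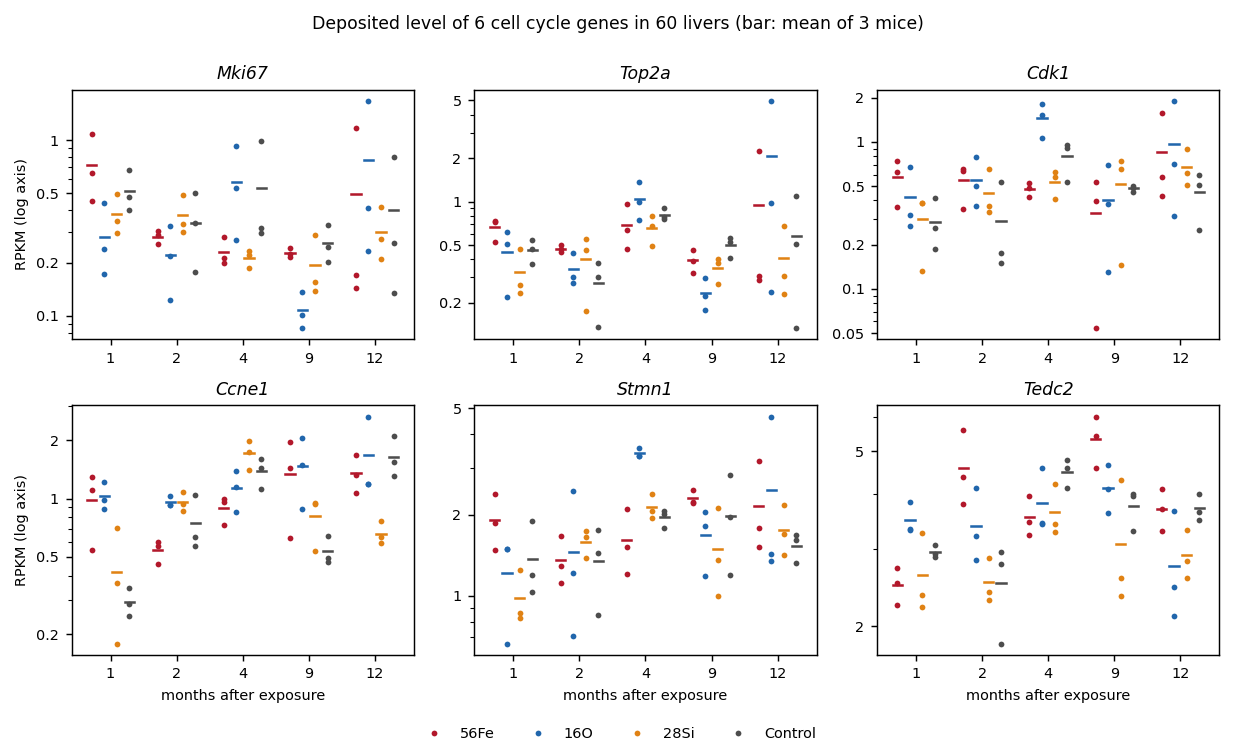
Deposited RPKM (log axis) of Mki67, Top2a, Cdk1, Ccne1, Stmn1 and Tedc2 in each of the 60 livers, by months after exposure. Each point is a mouse and each bar the mean of 3 mice, for 56Fe, 16O, 28Si and control from left to right. One 12-month 16O liver stands at 1.68 RPKM of Mki67 and 4.96 RPKM of Top2a, above the other livers.

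Depth recovered from the low values lay between 11412665 and 40568208 mapped pairs of reads, and the median library had 18891345. The share of mapped reads that the table covers differed by month, from 43.4% to 66.4% over the livers of months 1 and 2, and from 56.0% to 88.4% over those of months 4, 9 and 12, so time and library composition cannot be told apart. The sum of 10 hepatocyte marker genes, none of them at 0 throughout, was 16939.5 to 50298 RPKM, as the labelled tissue would have. There were 4 livers that stood apart in Ptprc, the gene of the leukocyte antigen CD45, and were picked out after the values were seen. They were the 56Fe 12-month liver of mouse 1 (24.3 RPKM), the 16O 12-month liver of mouse 2 (16.7 RPKM), the 28Si 9-month liver of mouse 2 (8.91 RPKM) and the control 12-month liver of mouse 2 (15.4 RPKM), against 1.52 to 4.76 RPKM in the other 56. Calls whose values lean on these livers are given with and without them. Mitochondrial transcripts took up 8.27% to 20.9% of the RPKM of a liver at 1 and 2 months and 2.43% to 7.14% at 4, 9 and 12 months.

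Whether an ion changed these genes was asked by comparing each ion with the controls of its month. In 285 tests of a member over 15 comparisons, 1 passed an adjusted p of 0.05. It was Ccne1 at 1 month after 16O, the gene of cyclin E1, which drives entry into S phase. Ccne1 had 0.986, 1.22 and 0.883 RPKM in 16O livers, against 0.287, 0.246 and 0.344 RPKM in control livers, so that all 3 exposed livers lay above all 3 controls. The log2 fold change was 1.55 (SE 0.26, adjusted p = 0.0188, limma), 1 call among 18 members tested (1.6% of all 11083 genes were called there), and limma-voom on estimated reads gave 1.55 with an adjusted p of 0.0163. Ccne1 was tested because of the 16O livers alone, since the filter asks for 0.5 RPKM in 3 libraries and no control reached it, so a difference was built into its entry. With no filter the adjusted p was 0.0519, with a filter at 1 RPKM the gene was not tested, and with one at 0.1 RPKM, which the controls also passed, the adjusted p was 0.0157. Without control mouse 2 it was 0.0591, and in 3 of the 6 fits that leave out a mouse the gene fell below the filter. Mitochondrial transcripts were 17.3%, 20.9% and 15.8% of the RPKM in these 16O livers, against 10.4%, 11.1% and 11.8% in the control livers, and the part of this difference in the level of Ccne1 was not tested.

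At the same month Ccne1 had 1.29, 1.10 and 0.545 RPKM in 56Fe livers, with a log2 fold change of 1.42 (SE 0.31) that missed the threshold (adjusted p = 0.0600, limma, and 0.173 with no filter). Here too the gene passed the filter only through the exposed livers, and mitochondrial transcripts were 12.2%, 19.9% and 17.7% of their RPKM. It had 0.179, 0.368 and 0.706 RPKM in 28Si livers, which overlapped the controls and had 8.34%, 8.32% and 9.52% mitochondrial transcripts. The 3 ions share the same controls, so these are not separate tests of the control level. The mean of Ccne1 in these controls (0.293 RPKM) was the lowest of the 20 groups. At 2 months it had 0.458, 0.571 and 0.597 RPKM in 56Fe livers, 1.03, 0.923 and 0.925 RPKM in 16O livers and 0.933, 0.859 and 1.08 RPKM in 28Si livers, against 0.570, 0.636 and 1.05 RPKM in control livers, and no difference passed. These ranges lay over each other. At 9 months 56Fe livers had 1.95, 1.43 and 0.624 RPKM and 16O livers 0.889, 2.05 and 1.4998 RPKM, against 0.491, 0.642 and 0.470 RPKM in control livers, with adjusted p-values of 0.131 and 0.0886. At 12 months 28Si livers had 0.588, 0.631 and 0.762 RPKM, against 1.54, 2.10 and 1.31 RPKM in control livers, a log2 fold change of -1.18 with an adjusted p of 0.530. The groups did not overlap in that comparison although the difference did not pass, and without control mouse 2, a liver high in Ptprc, it was -0.97 (adjusted p = 0.604).

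In the other 14 comparisons of an ion with its controls no member passed by limma. The count of members at an unadjusted p under 0.05 ran from 2 after 56Fe and 3 after 28Si at 1 month, through 3, 2 and 1 after 56Fe, 16O and 28Si at 2 months, 5, 6 and 2 at 4 months, and 4, 4 and 0 at 9 months, to 1, 0 and 2 at 12 months. Among these are Ccne1 after 56Fe at 1 month, Birc5 after 16O at 4 months and E2f1 after 16O at 9 months, which passed the filter through 1 of the 2 groups alone. Over all genes, 1402 of 11123 after 56Fe and 1473 of 11045 after 28Si had an unadjusted p under 0.05 at 1 month. Members tested there were 20 and 14. After 56Fe, 16O and 28Si they numbered 1376, 1073 and 924 at 2 months (16, 14 and 18 members tested). At 4 months they numbered 1384, 690 and 1388 (19, 24 and 22). At 9 months they were 3033, 1736 and 1313 (19, 19 and 20), and at 12 months 393, 244 and 877 (20, 22 and 20). These were of 11079 to 11442 genes. Limma-voom called 0 in each of the 14. The share of all genes called was 1.18% and 0.244% after 56Fe and 28Si at 1 month. It was 0%, 0% and 0.0181% after 56Fe, 16O and 28Si at 2 months, 0.541%, 0% and 0.382% at 4 months, 3.65%, 1.11% and 0.124% at 9 months, and 0%, 0.00878% and 0.0176% at 12 months. With 3 mice against 3, a difference that misses the threshold does not show that levels were alike. The colour map of fold changes shows each of these comparisons as a column.

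**Figure D2:**
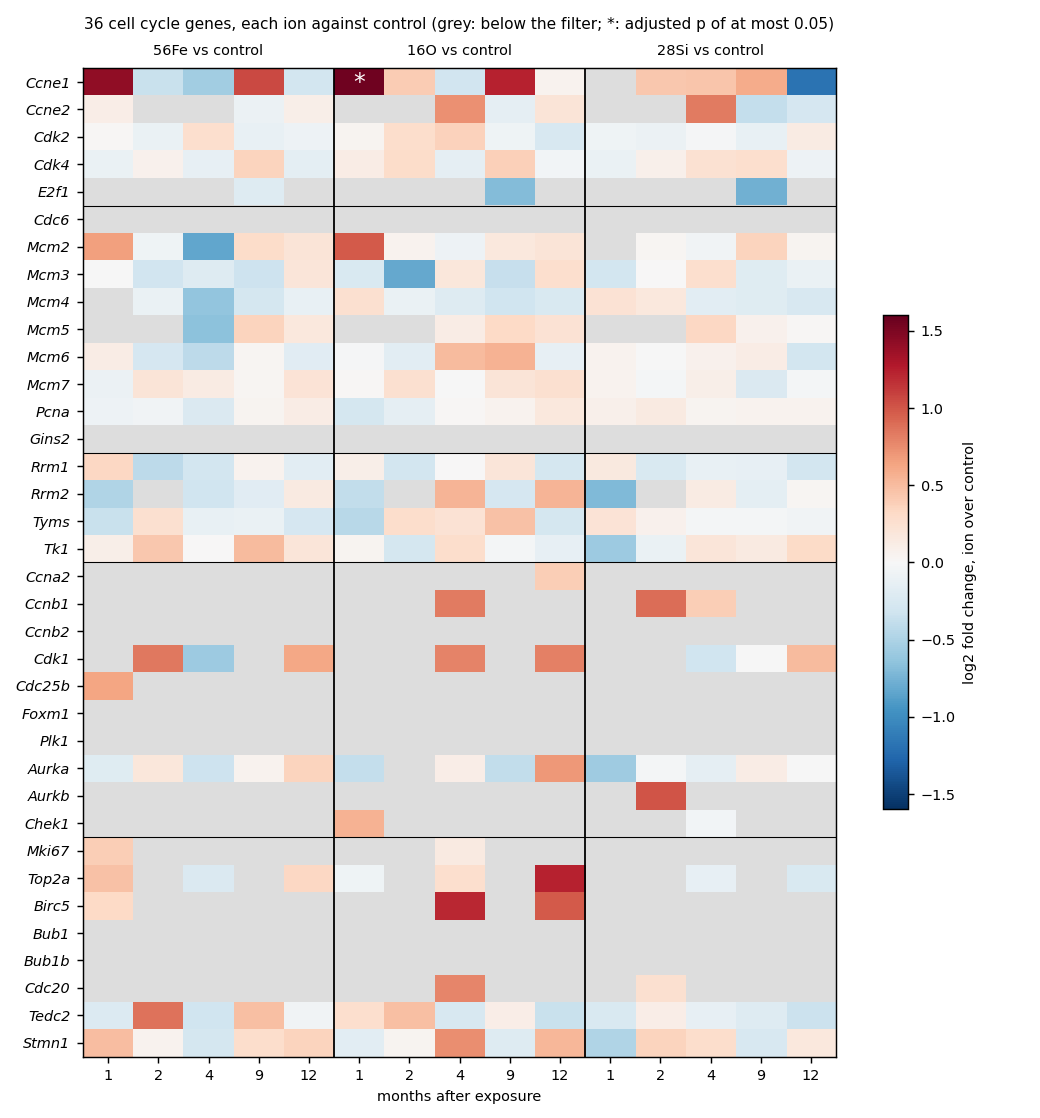
Log2 fold change of the 36 genes (rows, grouped by role) for each ion over control at 1, 2, 4, 9 and 12 months (columns), limma on scaled log2(RPKM + 0.1). Grey cells were below the filter on low values, and the star marks Ccne1 after 16O at 1 month (1.55), where the adjusted p was at most 0.05.

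At 4 months, a month chosen for description after its values were seen, most members were higher than control after 16O and lower after 56Fe, against the same 3 controls and with no call. With no filter on low values, 28 of the 36 were higher after 16O, their median being 0.19 on the log2 scale, against 0.02 over all genes. Cdk1, Stmn1, Cdk2, Cdc20 and Rrm2 reached an unadjusted p under 0.05, as did Birc5, which passed the filter only through the 16O livers, with adjusted p-values of 0.758 to 0.808. Stmn1 had 3.32, 3.31 and 3.55 RPKM in 16O livers, against 1.80, 2.02 and 2.07 RPKM in control livers. Birc5, whose product guards chromosome segregation, had 1.08, 0.696 and 1.04 RPKM in 16O livers, against 0.269, 0.401 and 0.356 RPKM in control livers. The groups did not overlap for either gene. Cdk1 had 1.07, 1.52 and 1.81 RPKM in 16O livers, against 0.959, 0.913 and 0.530 RPKM in control livers, and Cdc20 had 1.00, 0.829 and 0.954 RPKM in 16O livers, against 0.354, 0.758 and 0.440 RPKM in control livers. Mki67 did overlap, with 0.538, 0.272 and 0.932 RPKM in 16O livers, against 0.316, 0.992 and 0.296 RPKM in control livers. All 3 exposed livers lay above all 3 controls for 6 of the 34 members with a mean of at least 0.1 RPKM (17.6%), against 5.69% of all genes, and below them for 0 of 34, against 5.86%. The sixth of these genes beside Birc5, Stmn1, Cdk1, Cdk2 and Cdc20 was Ccnb2, a cyclin of mitosis that fell below the filter, with 0.676, 0.459 and 0.694 RPKM in 16O livers, against 0.0754, 0.171 and 0.286 RPKM in control livers. Ptprc was 2.13, 2.70 and 4.06 RPKM in these 16O livers, against 3.90, 3.48 and 3.31 RPKM in the controls, and depth was 40568208, 27048097 and 16950444 read pairs, against 17324524, 19141636 and 11412665. The part of depth in these values was not tested.

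After 56Fe at 4 months 29 of the 36 members were lower than control with no filter, their median being -0.27 on the log2 scale, against 0.02 over all genes. Ccne1, Mcm2, Mcm4, Mcm5 and Tedc2 reached an unadjusted p under 0.05, with adjusted p-values of 0.297 to 0.388. Mcm4 had 1.05, 0.973 and 1.01 RPKM in 56Fe livers, against 1.99, 1.19 and 1.88 RPKM in control livers, and Mcm5 had 0.697, 0.569 and 0.584 RPKM in 56Fe livers, against 1.62, 0.772 and 0.895 RPKM in control livers. Both are subunits of the helicase, and neither overlapped. Mcm2 had 0.893, 0.538 and 0.476 RPKM in 56Fe livers, against 1.84, 0.821 and 1.09 RPKM in control livers, and Mki67 had 0.214, 0.201 and 0.282 RPKM in 56Fe livers, against 0.316, 0.992 and 0.296 RPKM in control livers. All 3 exposed livers were lower than all 3 controls for 8 of 34 members (23.5%), against 7.74% of all genes, and higher for 0, against 8.25%. No such count of members was tested against that of all genes.

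With the 3 ions pooled, 0 of 116 tests of a member passed by limma over the 5 months, and limma-voom called 0. Members at an unadjusted p under 0.05 numbered 3, 2, 1, 2 and 0 at 1, 2, 4, 9 and 12 months, where 0.581%, 0%, 0.0344%, 0.527% and 0.00839% of all genes were called. Members tested numbered 23, 20, 27, 20 and 26. Over all genes 1109 of 11539, 631 of 11510, 1311 of 11620, 2010 of 11754 and 427 of 11926 had an unadjusted p under 0.05. Ccne1 was foremost at 1 month (log2 fold change 1.07, SE 0.31, adjusted p = 0.199), and at 9 months it had 0.97 (SE 0.31, adjusted p = 0.157) with Cdk4 at 0.34 (SE 0.10, adjusted p = 0.132). At 12 months the smallest adjusted p of a member was 1.00, and it was 1.00, 0.991 and 0.530 for 56Fe, 16O and 28Si alone.

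Mki67 and Top2a, read as marks of cycling cells, spread widely among the mice of a group. At 1 month Mki67 had 0.647, 1.08 and 0.450 RPKM in 56Fe livers, 0.172, 0.240 and 0.437 RPKM in 16O livers and 0.492, 0.298 and 0.346 RPKM in 28Si livers, against 0.399, 0.676 and 0.473 RPKM in control livers. At 9 months it had 0.216, 0.244 and 0.225 RPKM in 56Fe livers, 0.101, 0.0855 and 0.137 RPKM in 16O livers and 0.155, 0.288 and 0.139 RPKM in 28Si livers, against 0.328, 0.204 and 0.247 RPKM in control livers. In the 16O livers of 9 months Mki67 thus lay below all 3 controls, as did Top2a with 0.223, 0.177 and 0.296 RPKM in 16O livers, against 0.558, 0.405 and 0.528 RPKM in control livers. Both genes were under the filter on low values in that fit and were not tested, and 6 of 34 members (17.6%) were lower without overlap there, against 11.5% of all genes. At 12 months Top2a had 2.24, 0.307 and 0.288 RPKM in 56Fe livers, 0.238, 4.96 and 0.982 RPKM in 16O livers and 0.681, 0.228 and 0.305 RPKM in 28Si livers, against 0.506, 1.10 and 0.134 RPKM in control livers. The highest value of the 56Fe, 16O and control groups was that of the liver high in Ptprc. Without the 4 livers high in Ptprc, 0 members passed in any comparison of an ion with control at 9 or 12 months that held one of them (0% to 0.0809% of all genes called).

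Comparing ions with each other, 3 of 348 tests of a member passed, all against 28Si. At 1 month Stmn1 had 2.40, 1.86 and 1.49 RPKM in 56Fe livers, against 1.25, 0.825 and 0.865 RPKM in 28Si livers, with no overlap and a log2 fold change of 0.95 (SE 0.25, adjusted p = 0.0315), 1 of 23 members tested (9.37% of all genes were called). Also at 1 month Ccne1 had the 16O values above, against those of 28Si livers, with a log2 fold change of 1.30 (SE 0.37, adjusted p = 0.0341), 1 of 23 members (13.8% of all genes were called). These 2 calls at 1 month set livers of 12.2% to 20.9% mitochondrial transcripts against livers of 8.32% to 9.52%, whose part in them was not tested. Limma-voom called 7 members between 56Fe and 28Si (Birc5, Ccne1, Ccne2, Cdk1, Mki67, Stmn1 and Tk1) and 4 between 16O and 28Si (Ccne1, Ccne2, Tedc2 and Tk1). The shares of all genes that limma-voom called are not given, so these counts of members have no background beside them. At 2 months Tedc2 had 3.79, 4.37 and 5.60 RPKM in 56Fe livers, against 2.30, 2.40 and 2.86 RPKM in 28Si livers, with no overlap and a log2 fold change of 0.76 (SE 0.17, adjusted p = 0.0485), 1 of 20 members (1.17% of all genes were called). The first of these calls was lost in 5 of the 12 fits that leave out a mouse (adjusted p 0.0593 to 0.108), the second in 4 (0.0578 to 0.147) and the third in 8 (0.0551 to 0.185).

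The remaining 12 comparisons between ions gave 0 members by limma, with 0 to 10 members at an unadjusted p under 0.05 and 0 by limma-voom except Ccne2 between 56Fe and 28Si at 4 months (-1.53, adjusted p = 0.0376). At 4 months, with no filter, 32 of 36 members were lower in 56Fe than in 16O livers (median log2 fold change -0.48) and 28 of 36 were lower in 56Fe than in 28Si livers (median -0.27), and with the filter 10 and 6 of 27 had an unadjusted p under 0.05. Over all genes 815 and 1940 of 11620 had an unadjusted p under 0.05 in these 2 comparisons, and 0.0688% and 0.981% were called. Over the 12 comparisons 230 to 2326 genes had one, of 11510 to 11926 tested. The closest to the threshold was Ccne1 in 56Fe against 28Si, at 0.957, 1.00 and 0.727 RPKM, against 1.99, 1.73 and 1.404 RPKM (adjusted p = 0.0646). In the other 10 comparisons between ions, 0% to 0.582% of all genes were called.

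Tedc2 was also the 1 member whose ion effect differed between months in 360 tests of a change of effect. In 56Fe livers it had 3.79, 4.37 and 5.60 RPKM at 2 months, against 2.94, 1.83 and 2.77 RPKM in the controls of that month, and 2.50, 2.71 and 2.24 RPKM at 1 month, against 2.87, 3.06 and 2.92 RPKM in the controls of that month. As deposited, exposed livers lay above their controls at 2 months and below them at 1 month. On the scaled values that the test used, the groups of 1 month overlapped, with 2.89, 3.46 and 2.84 scaled RPKM in 56Fe livers, against 3.78, 3.94 and 3.16 scaled RPKM in controls. The change of effect was 1.09 on the log2 scale (SE 0.25, adjusted p = 0.0366, limma), 1 of 30 members tested (0.244% of all genes were called). In the other 11 changes of effect 0 members passed by limma (1 to 8 at an unadjusted p under 0.05, 0% to 1.25% of all genes called), and limma-voom called Ccne1 in 1 of them. At an unadjusted p under 0.05 stood 438 to 1678 of all 12731 genes. For Tedc2 limma-voom gave 1.13 with an adjusted p of 0.0992, and the call was lost in 10 of 60 fits that leave out a mouse (0.0561 to 0.157). No single month gave a call of Tedc2 against control, where the log2 fold change was 0.87 at 2 months (SE 0.18, adjusted p = 0.149). Ccne1 followed, with a change of effect of 1.58 between 9 and 4 months after 56Fe (SE 0.49, adjusted p = 0.0958). Without the livers high in Ptprc, 2 members passed between 2 and 1 months (Tedc2 at 1.11 and Ccne1 at -1.81) and 2 between 9 and 4 months (Ccne1 at 1.59 and Tedc2 at 0.80), where 0.781% and 4.21% of all genes were called.

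Over time, 5 genes of the licensing group, among them Mcm6 and Pcna, rose between 2 and 4 months, while Mcm2, Mcm7 and Rrm1 did not pass and Tk1 fell. Libraries were scaled for these comparisons over the 4 groups together, and 30 members passed the filter. Between 4 and 2 months 9 members rose and 1 fell (33.3% of the 30), against 66.7% of all 12731 genes called, so the share of members was below that of all genes. By role, 5 of 7 licensing genes tested rose, 2 of 4 nucleotide genes rose and 1 fell, 2 of 5 G1/S genes rose, and 0 of 8 G2 and mitotic entry genes and 0 of 6 chromosome and spindle genes passed, a difference between roles that was not tested. Mitochondrial transcripts took up 3.56% to 7.14% of the RPKM at 4 months, against 8.27% to 17.96% at 2 months, without overlap, and their part in these changes was not tested. Over all genes RPKM as deposited were higher by a median of 0.42 on the log2 scale at 4 than at 2 months, and with no scaling 22 members passed in place of 10. The share of all genes called with no scaling is not given.

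Mcm6 had a median of 2.12 scaled RPKM at 4 months (1.32 to 3.82, n = 12 livers), against 0.924 scaled RPKM at 2 months (0.802 to 1.75). Its log2 fold change was 0.99 (SE 0.16, adjusted p = 5.04e-07, limma). Mcm5 followed with a median of 0.848 scaled RPKM at 4 months (0.503 to 1.46), against 0.456 scaled RPKM at 2 months (0.186 to 0.890), a log2 fold change of 0.84 (SE 0.24). The ranges of both helicase genes overlapped between the months. Mcm4 had a median of 1.16 scaled RPKM at 4 months (0.856 to 1.71), against 0.697 scaled RPKM at 2 months (0.528 to 0.878), a log2 fold change of 0.72 (SE 0.14), and Mcm3 rose by 0.41 (SE 0.13), with a median of 0.992 scaled RPKM at 4 months (0.740 to 1.56), against 0.761 scaled RPKM at 2 months (0.413 to 1.43). For Mcm4 the ranges met only between 0.856 and 0.878 scaled RPKM. Pcna had a median of 11.2 scaled RPKM at 4 months (8.98 to 12.5), against 8.37 scaled RPKM at 2 months (7.04 to 9.87), with a log2 fold change of 0.38 (SE 0.06, adjusted p = 7.82e-08). For the clamp gene only the top of the 2-month range reached the bottom of the 4-month range. Rrm2, the regulated subunit of ribonucleotide reductase, had a median of 0.866 scaled RPKM at 4 months (0.585 to 1.56), against 0.439 scaled RPKM at 2 months (0.286 to 0.778), and rose by 0.82 (SE 0.17). Ccne2, the second cyclin E gene, had a median of 0.756 scaled RPKM at 4 months (0.174 to 1.49), against 0.396 scaled RPKM at 2 months (0.153 to 0.655), and rose by 0.65 (SE 0.19). These low genes spread more widely than those that follow. Tyms had a median of 4.05 scaled RPKM at 4 months (2.80 to 5.06), against 3.08 scaled RPKM at 2 months (2.36 to 4.24), and rose by 0.36 (SE 0.12). Cdk4 had a median of 8.91 scaled RPKM at 4 months (7.67 to 11.6), against 7.57 scaled RPKM at 2 months (6.65 to 10.9), and rose by 0.18 (SE 0.07), the smallest change among the 10 calls. Tk1 fell, with a median of 4.97 scaled RPKM at 4 months (3.10 to 8.31), against 7.09 scaled RPKM at 2 months (3.84 to 11.1), a log2 fold change of -0.49 (SE 0.17, adjusted p = 0.0123). All 10 calls held in each of the 60 fits that leave out a library, and without the 4 livers high in Ptprc 10 members rose and 2 fell (71.5% of all genes called), with Top2a (0.58) and Aurkb (-0.66) added. Limma-voom called 14 members, among them 9 of the 10, with Mcm7 (0.27) and Rrm1 (0.15) higher and Aurkb (-0.87), Birc5 (-0.73) and Cdk2 (-0.20) lower, and Tyms was at 0.01 there (adjusted p = 0.941). The share of all genes that limma-voom called is not given. With upper quartile scaling Cdk4 was at 0.10 (adjusted p = 0.205), and with no scaling Tk1 was at -0.05 (adjusted p = 0.816).

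**Figure D3:**
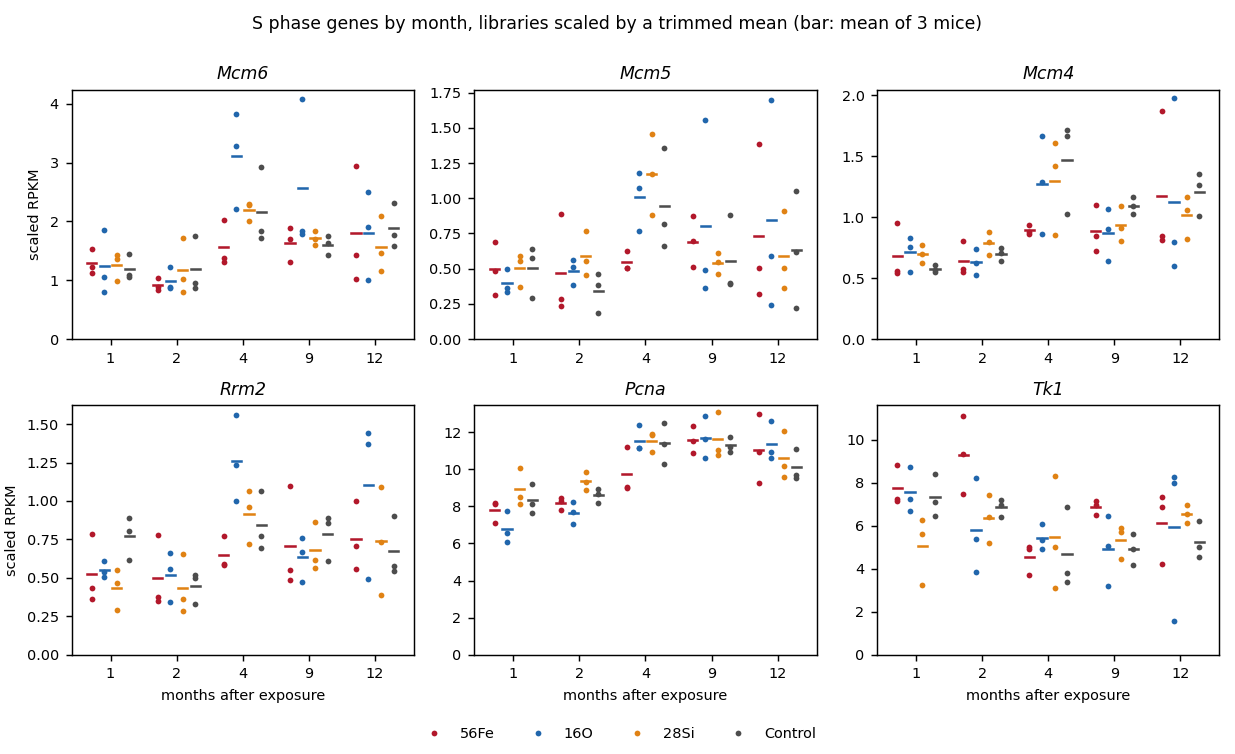
Scaled RPKM of Mcm6, Mcm5, Mcm4, Rrm2, Pcna and Tk1 in each liver by months after exposure, for 56Fe, 16O, 28Si and control from left to right. Points are mice and bars means of 3 mice. The median of the 12 livers is higher at 4 than at 2 months for Pcna (11.2 and 8.37) and lower for Tk1 (4.97 and 7.09), with ranges that overlap.

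Other steps in time gave few calls. Between 2 and 1 months 0 of 30 members passed by limma or limma-voom, 2 had an unadjusted p under 0.05 (1690 of 12731 over all genes), and 1.3% of all genes were called. Between 9 and 4 months 0 passed by limma, and 1.08% of all genes were called. At an unadjusted p under 0.05 stood 10 of 30 members, against 1554 of all 12731 genes. With no filter 32 of the 36 were lower at 9 months and their median was -0.30 on the log2 scale, against -0.02 over all genes. All 8 G2 and mitotic entry genes and all 6 chromosome and spindle genes tested were on the lower side. Top2a had a median of 0.331 scaled RPKM at 9 months (0.146 to 0.466), against 0.675 scaled RPKM at 4 months (0.413 to 1.18), a log2 fold change of -0.96 (adjusted p = 0.0824). Ccnb1 was at -1.08 (adjusted p = 0.0890) and Cdk1 at -0.83 (adjusted p = 0.0964), and limma-voom called these 2. Without the livers high in Ptprc 4 members fell, Top2a by 0.98 (adjusted p = 0.00244), Ccnb1 by 1.19, Cdk1 by 0.92 and Mki67 by 0.67, where 2.11% of all genes were called. Of the livers left out 1 is of 9 months and 3 are of 12 months.

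Between 12 and 9 months Mki67 rose and Tedc2 fell among 30 members, where 21% of all genes were called. Mki67 had a median of 0.235 scaled RPKM at 12 months (0.112 to 1.73), against 0.175 scaled RPKM at 9 months (0.0705 to 0.274), with a log2 fold change of 0.71 (SE 0.25, adjusted p = 0.0339). The upper end of the 12-month range came from livers high in Ptprc, and without the 4 such livers the log2 fold change was 0.25 (adjusted p = 0.400). Leaving out the 56Fe, 16O or control liver of 12 months high in Ptprc each lost the call as well, with adjusted p-values of 0.106, 0.0917 and 0.0983, as did 5 other libraries (0.0533 to 0.0576). Tedc2 had a median of 2.97 scaled RPKM at 12 months (2.19 to 3.58), against 3.42 scaled RPKM at 9 months (2.11 to 4.75), a log2 fold change of -0.26 (SE 0.09, adjusted p = 0.0270) that kept its call without the 4 livers (adjusted p = 0.049996) and lost it in 5 of 60 fits that leave out a library.

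Within each group, 12 months were compared with 1 month, and 11 of 120 tests of a member passed. Pcna rose in 3 of the 4 groups. It had 12.99, 9.28 and 10.9 scaled RPKM at 12 months, against 7.10, 8.11 and 8.18 at 1 month in 56Fe livers (log2 fold change 0.49, SE 0.11). In 16O livers it had 10.6, 12.6 and 10.9 scaled RPKM at 12 months, against 6.06, 6.57 and 7.73 at 1 month (0.74, SE 0.11, adjusted p = 8.40e-07). In control livers it had 11.1, 9.54 and 9.67 scaled RPKM at 12 months, against 7.65, 8.11 and 9.20 at 1 month (0.28, SE 0.11, adjusted p = 0.0437). The months did not overlap in any of these groups, and 28Si livers had 0.25 (adjusted p = 0.0974). The calls in 56Fe and 16O held in each fit that leaves out a library, and the call in controls was lost in 5 of them. In controls it was also lost by limma-voom (adjusted p = 0.191), and by limma with RLE scaling (0.0593) or upper quartile scaling (0.104). A filter at 1 RPKM (0.0586), no filter (0.101) and only the 6 libraries of the 2 months (0.151) lost it too.

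In control livers Ccne1 had 1.32, 1.89 and 1.10 scaled RPKM at 12 months, against 0.378, 0.318 and 0.372 at 1 month, a log2 fold change of 1.72 (SE 0.34, adjusted p = 8.07e-05). These 1-month livers are also the controls of the 16O call of Ccne1, so the 2 calls are not separate. From 1 to 12 months Ccne1 changed by -0.02 in 56Fe, 0.17 in 16O and 0.31 in 28Si livers, with no call. In control livers Mcm4 had 1.01, 1.36 and 1.26 scaled RPKM at 12 months, against 0.547, 0.605 and 0.566 at 1 month, and rose by 0.95 (SE 0.28). Aurka had 0.282, 0.484 and 0.536 scaled RPKM at 12 months, against 1.17, 0.597 and 0.882 at 1 month, and fell by 0.87 (SE 0.27), a call lost without control mouse 1 of either month (adjusted p = 0.0830 for 1 month and 0.0902 for 12 months). The Aurka call was also lost with no scaling (limma, adjusted p = 0.208) and with only the 6 libraries of the 2 months (0.0716). In none of these 3 genes did the months overlap, and with Pcna they made 3 members up and 1 down of 30, with 40.5% of all genes called. In 56Fe livers Pcna rose and Cdc25b and Mki67 fell, where 41.2% of all genes were called. Mki67 had 0.966, 0.148 and 0.117 scaled RPKM at 12 months, against 0.748, 1.38 and 0.572 at 1 month (log2 fold change -1.29, SE 0.49, adjusted p = 0.0314), and mouse 1 of 12 months is the one high in Ptprc, without which the change was -2.02. Without mouse 2 or mouse 3 of 12 months the adjusted p was 0.156 and 0.199, and without mouse 2 of 1 month it was 0.165. The Mki67 call was also lost with no scaling (limma, adjusted p = 0.139), a filter at 0.1 RPKM (0.0907) and no filter (0.115). It was lost too with a pseudocount of 1 (0.0511) and with only the 6 libraries of the 2 months (0.143). Cdc25b had 0.464, 0.213 and 0.246 scaled RPKM at 12 months, against 0.687, 0.676 and 0.820 at 1 month, with no overlap (-1.07, SE 0.39), and its call was lost in 3 fits that leave out a library. It was also lost by limma-voom (-0.55, adjusted p = 0.271), and by limma with no scaling (0.188), a filter at 0.1 RPKM (0.0950) and no filter (0.114). In 16O livers Pcna and Mcm3 rose and Cdk2 and Tedc2 fell, where 46.4% of all genes were called. Tedc2 had 2.29, 2.19 and 3.06 scaled RPKM at 12 months, against 4.06, 5.10 and 3.99 at 1 month, with no overlap and a log2 fold change of -0.79 (SE 0.17) whose call held in each fit that leaves out a library. With no scaling the Tedc2 call was lost (-0.37, limma, adjusted p = 0.103). Mcm3 had 0.900, 1.81 and 1.18 scaled RPKM at 12 months, against 0.693, 0.777 and 0.817 at 1 month, a log2 fold change of 0.65 (SE 0.27, adjusted p = 0.0444), which became 0.39 (adjusted p = 0.303) without the 16O liver high in Ptprc. The Mcm3 call was lost in 5 fits that leave out a library and by limma-voom (adjusted p = 0.0816). Limma lost it with RLE scaling (0.0531), upper quartile scaling (0.0903), a filter at 1 RPKM (0.0534) or no filter (0.0663). Only the 6 libraries of the 2 months (0.164) lost it too. Cdk2 had 2.55, 2.32 and 2.29 scaled RPKM at 12 months, against 3.66, 2.92 and 3.32 at 1 month, a log2 fold change of -0.45 (SE 0.17, adjusted p = 0.0297), which became -0.44 (adjusted p = 0.0656) without the livers high in Ptprc and -0.03 with no scaling. The Cdk2 call was also lost in 4 fits that leave out a library. Limma lost it with a filter at 0.1 RPKM (adjusted p = 0.102), no filter (0.0977) and only the 6 libraries of the 2 months (0.0959). In 28Si livers 0 members passed by limma (26.1% of all genes called) and limma-voom called Ccne2. There 3 of 30 members had an unadjusted p under 0.05, against 4707 of all 12731 genes. Whether a change from 1 to 12 months differed between an ion and control was not tested for these pairs of months.

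Leaving out the livers high in Ptprc added mitotic genes to the calls in 56Fe and control livers. In 56Fe livers 6 members then passed (41.9% of all genes called), with Mki67 at -2.01, Ccnb1 at -1.89, Birc5 at -1.601, Top2a at -1.36, Cdc25b at -1.31 and Pcna at 0.38. In control livers 8 passed (44% of all genes), with Mki67 at -1.47, Birc5 at -1.28, Top2a at -0.98, Aurka at -0.96, Mcm7 at -0.50, Ccne1 at 1.504, Mcm4 at 0.86 and Pcna at 0.30. In 16O livers 3 passed (42.4% of all genes), with Chek1 at -1.41, Tedc2 at -0.71 and Pcna at 0.66, and in 28Si livers Mcm7 at -0.51 (32.1% of all genes). With the libraries left unscaled, all genes were higher at 12 than at 1 month by a median of 0.53 in 56Fe, 0.41 in 16O, 0.44 in 28Si and 0.49 in control livers on the log2 scale, so the directions here are relative to that shift.

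The 3 livers of 12 months that were high in Ptprc held the highest values of their month for some of the proliferation genes. Mki67 was 1.17 RPKM in the 56Fe liver, 1.68 RPKM in the 16O liver and 0.808 RPKM in the control liver, against 0.134 to 0.418 RPKM in the other 9 livers of that month. Top2a was 2.24, 4.96 and 1.10 RPKM in these livers, against 0.134 to 0.982 RPKM, and Birc5 was 1.11, 1.12 and 0.663 RPKM, against 0.0535 to 0.602 RPKM. They were the top 3 of the 12 livers for 8 of the 36 members, namely Mki67, Top2a, Birc5, Bub1b, Ccne1, Mcm3, Mcm4 and Mcm5, and held at least 2 of the top 3 places for 23. Over the 34 members with a mean of at least 0.1 RPKM these shares were 23.5% and 64.7%, against 7.28% and 22.9% of all 14340 such genes. The control liver stood apart least, with Ccnb1 at 0.224 RPKM, near the 0.218 RPKM of the median of the other 9, and Stmn1 at 1.32 RPKM, the lowest of the month. For Rrm1, Tyms and Tk1 they held none, and Tk1 was 1.54 RPKM in the 16O liver, against 5.42 to 9.90 RPKM in the other 9. The 28Si liver of 9 months did not share this, with 0.288 RPKM of Mki67 and 0.377 RPKM of Top2a, inside the ranges of its month.

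**Figure D4:**
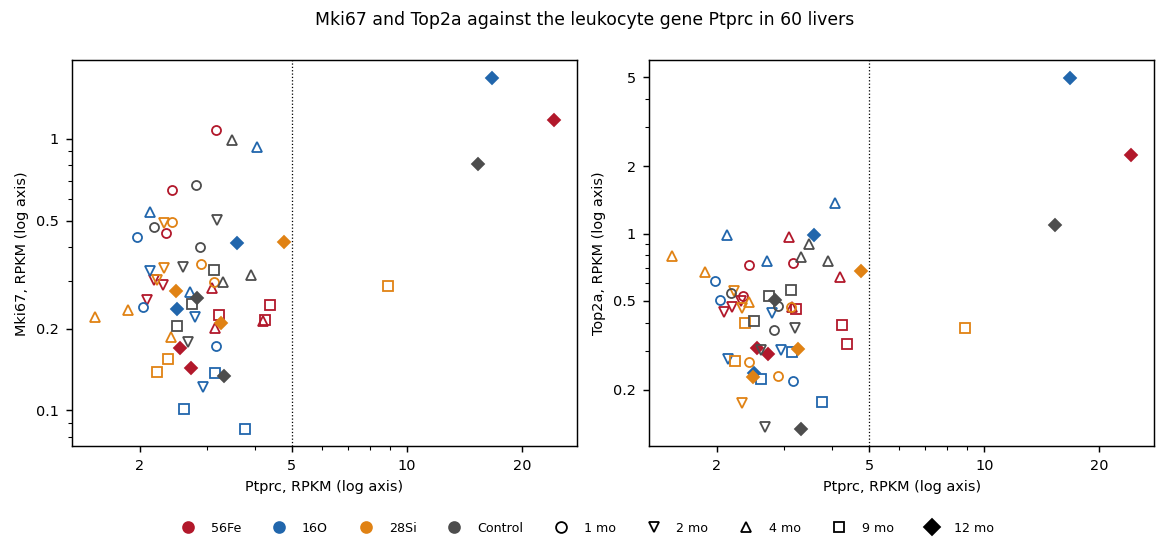
Mki67 (left) and Top2a (right) against Ptprc in 60 livers, RPKM on log axes, coloured by group, with a symbol for each month (filled for 12 months) and a dotted line at 5 RPKM of Ptprc. Right of the line, the 3 livers of 12 months hold 0.808 to 1.68 RPKM of Mki67, and the 28Si liver of 9 months holds 0.288 RPKM.

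Macrophage and neutrophil markers were higher in all 4 of these livers than in the other 56, and lymphocyte markers in some. The summed level of 12 Kupffer cell and macrophage genes was 957 RPKM in the 56Fe liver of 12 months, 604 RPKM in the 16O liver, 427 RPKM in the 28Si liver of 9 months and 578 RPKM in the control liver, against 50.3 to 354 RPKM in the other 56. The 10 neutrophil and precursor genes summed to 116, 124, 69.6 and 44.0001 RPKM in the 56Fe, 16O, 28Si and control livers, against 0.661 to 32.1 RPKM. The 7 measured of 9 B and plasma cell genes summed to 23.2, 3.24, 5.08 and 4.76 RPKM in the 56Fe, 16O, 28Si and control livers, against 0.704 to 4.00 RPKM in the other 56, so the 16O liver lay inside their range. The 11 measured of 12 T and NK cell genes summed to 5.22, 3.17, 3.18 and 4.49 RPKM, against 1.11 to 3.40 RPKM, with the 16O and 28Si livers inside that range. No measured gene of these lists was at 0 in all libraries. Hepatocyte genes summed to 21822 RPKM in the 16O liver, below the 31471.6 to 44705.9 RPKM of the other 9 livers of 12 months, and to 24453 RPKM in the 28Si liver, the lowest of 9 months, while the 56Fe (38988 RPKM) and control (45409 RPKM) livers were not low. The 6 fetal and tumour-associated liver genes summed to 3.41, 2.19, 7.68 and 2.31 RPKM in the 56Fe, 16O, 28Si and control livers. The other 56 had 0.909 to 6.06 RPKM, so the 28Si liver alone lay above them. Endothelial genes were above the other 56 in the 56Fe liver alone (111 RPKM, against 35.2 to 104 RPKM). Sums of erythroid, stellate cell and cholangiocyte genes lay inside the range of the other 56. The part of blood cells or other cell types in the level of the proliferation genes was not tested.

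Whether the members varied together among mice of a group was asked with Mki67 as the measure. Each gene's log2 values were taken as deviations from the mean of its group of 3 mice, over 60 livers, and set against those of Mki67, with a two-sided permutation test of 100000 resamples adjusted over the 12730 genes that pass the filter. Of the 29 members among them, 5 had a positive r past an adjusted p of 0.05 (17.2%), namely Top2a, Ccnb1, Cdk1, Aurkb and Ccnb2, against 1.18% of all genes, and 0 had a negative one. At an unadjusted p of 0.05, 16 members had a positive r (55.2%), against 13.8% of all genes, and their median r was 0.39, against -0.03 over all genes. Top2a had r = 0.80 and rho = 0.66 (permutation p 1e-05 for r, the smallest that the resamples can give), Ccnb1 had r = 0.72 and rho = 0.73, and Ccna2 had r = 0.65 and rho = 0.52. Without the 2 livers farthest from the median of Mki67 these r were 0.71, 0.67 and 0.57. By role, with the members below the filter counted in (35 in all), the median r was 0.60 over the chromosome and spindle genes and 0.51 over G2 and mitotic entry. It was 0.47 over licensing, 0.083 over G1/S and 6.9e-05 over nucleotide genes. Tk1 had r = -0.44 over the 60 livers.

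Leaving out the livers high in Ptprc took away these calls. Over the other 56 livers 0 members and 0 of all genes passed, and 10 of 29 members had a positive r at an unadjusted p of 0.05 (34.5%), against 2.55% of all genes. Over all 35 members, with those below the filter, the highest r were then those of Ccnb1 (0.62), Bub1 (0.54), Top2a (0.52) and Foxm1 (0.52), all genes of G2, mitosis or its checkpoint. Bub1 and Foxm1 are not among the 29, with medians of 0.0508 and 0.165 RPKM near the floor. The r of Tk1 was -0.0049. Within months taken singly, over 12 livers each, the median r of the 35 members was 0.09, 0.43, 0.27, 0.06 and 0.71 at 1, 2, 4, 9 and 12 months.

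**Figure D5:**
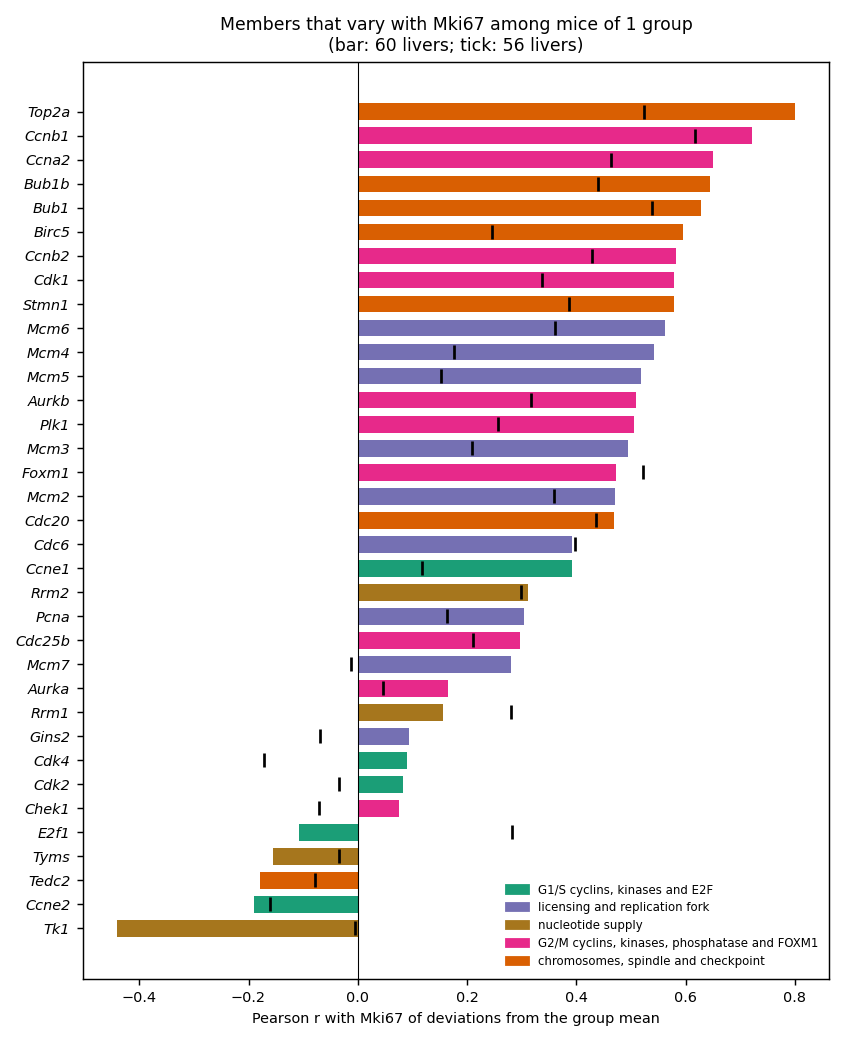
Pearson r of each of 35 members with Mki67, from log2 deviations of each liver from its group mean. Bars are over 60 livers, coloured by role, and ticks are over the 56 livers left without those high in Ptprc. Top2a has the longest bar (0.80), and its tick stands at 0.52.

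Beyond the 36 genes, 112 other cell cycle genes in 4 lists (licensing and firing, polymerases and clamp loader, spindle and kinetochore, and G1 cyclins with inhibitors and pocket proteins) were counted in the same fits. Against control, 2 of 76 tested fell after 56Fe at 9 months (2.63%, against 3.65% of all genes), Rpa3 by 0.62 (adjusted p = 0.0405) and Ccng1 by 0.52 (adjusted p = 0.0340), and 0 passed in the other 14 comparisons. Ccng1, a cyclin induced by p53, had 11.4, 10.4 and 12.5 RPKM in 56Fe livers, against 17.5, 17.03 and 14.8 RPKM in control livers, with no overlap. It was also the 1 gene of these lists called with the 3 ions together, at 9 months (-0.46, adjusted p = 0.0434). Between ions at 1 month 4 of 74 rose in 56Fe over 28Si livers (5.41%, against 9.37% of all genes), with Wee1 (1.51), Cdt1 (1.17) and Cenpa (0.89) the largest. There 2 rose and 2 fell in 16O over 28Si livers (5.41%, against 13.8% of all genes), with Wee1 at 1.69, the inhibitor gene Cdkn1a at -1.58 and Btg2 at -0.79. Between 4 and 2 months 29 of 92 rose and 19 fell (52.2%, against 66.7% of all genes), with Myc at -2.46, Rpa3 at 1.18 and Cdkn2a at 1.04 the largest. Between 9 and 4 months 2 rose and 3 fell (5.43%, against 1.08% of all genes), with Hmmr at -1.04 and Ccnd1 at -0.86.

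Cdkn2a codes for products that include an inhibitor of CDK4 that accumulates in ageing tissue. Among the called genes of the 4 other lists it was among the 3 largest changes from 1 to 12 months in every group. No liver of 1 month reached the 0.5 RPKM of the filter, so a difference from 1 month was built into its entry. Its level sums all transcripts of the gene and does not tell its products apart. It had 1.95, 0.803 and 0.541 RPKM at 12 months, against 0, 0.292 and 0.148 RPKM at 1 month in 56Fe livers (log2 fold change 1.92, adjusted p = 0.00251). In 16O livers it had 0.323, 1.04 and 0.533 RPKM at 12 months, against 0.0565, 0 and 0 RPKM at 1 month (2.41, adjusted p = 0.000174). In 28Si livers it had 0.740, 0.306 and 0.314 RPKM at 12 months, against 0.180, 0.0452 and 0 RPKM at 1 month (1.49, adjusted p = 0.0278), and in control livers 0.160, 1.24 and 0.279 RPKM at 12 months, against 0, 0.0482 and 0.147 RPKM at 1 month (1.51, adjusted p = 0.0168). As deposited RPKM, before scaling, the months did not overlap in any of the 4 groups. In control livers 0.160 RPKM stood against 0.147 RPKM, a gap smaller than the median shift of all unscaled genes between these months. The highest 12-month values of 56Fe, 16O and control were in the livers high in Ptprc. Without those livers the changes were 1.47 in 56Fe (adjusted p = 0.0161), 1.97 in 16O (adjusted p = 0.00154), 1.48 in 28Si (adjusted p = 0.00969) and 0.80 in control livers, where the call was lost (adjusted p = 0.198).

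Some values rest on parts of the annotation that reads cannot tell apart. Exons of Cdk4 overlap those of the opposite-strand gene Tspan31 over 19.7% of their length, where Tspan31 averaged 55.4 RPKM, and those of Ccne2 overlap Ints8 over 17.4%, Ccna2 overlaps Exosc9 over 12.5%, and Gins2 overlaps Gse1 over 67.3%. Whether the counting used strand is not given in the sources used here, so these 4 levels are uncertain. For Tyms 46.4% of the RPKM came from a transcript annotated for nonsense-mediated decay and 16.8% from protein-coding transcripts, and protein-coding transcripts gave 30.3% for Aurkb and 36.3% for Chek1.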

How the data were processed

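Transcript levels in slices of 60 left liver lobes were used as deposited. Per the study's methods the authors used CLC Genomics Workbench 12.0.3: after 14 bases were removed from each read at its 5′ end, reads were placed on GRCm38 (annotation release 97) where 95% of their length mapped, and the deposited unit is RPKM per transcript. RPKM were summed per gene. Whole reads were recovered from low values within 0.02 of a read for 99.8% to 100.0% of them.

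Each fit scaled libraries by a trimmed mean (30% of ratios, 5% of levels), kept genes of at least 0.5 RPKM in 3 libraries, and tested log2(RPKM + 0.1) with limma 3.58.1 (trend, R 4.3.3) and Benjamini-Hochberg adjustment over all genes tested, calling at 0.05. Fold changes are on that scale, which understates changes of low genes. Each ion was set against control with the libraries of those groups alone. Comparisons between ions, and of the ions together with control, used all libraries of the month. Comparisons over time and changes of effect used all 60 libraries. Fits were checked on simulated data in which folds were put only into genes of a higher level than most members. That check does not cover the low members or livers that stand apart. Counting tools were not used on RPKM, except limma-voom on estimated reads (at least 10 in 3 libraries) as an alternative. No share of all genes called is given for limma-voom, other scalings or other filters, so counts of members there stand without one. Correlation p-values are given adjusted over all genes tested, an alternative added after seeing the data. Correlations used Python 3.11.15 with scipy 1.17.1.

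The members, lists and tests were chosen with earlier results of these data known. All 36 genes are accounted for by role, each called member is named, and per-mouse values are given for members called between groups of 3 and in part for Mki67, Top2a, Cdk1, Pcna and Mcm2, while members called between months have the lowest, median and highest of 12 livers. The 16O and 56Fe patterns at 4 months and the livers high in Ptprc were picked after values were seen. The labels give library codes and no replicate numbers, so mice are numbered here by the order of the samples within their group. They do not say that mice came from separate experiments, so p-values measure the spread between mice.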

Additional observations from a re-analysis of the deposited data

Results flagged for a closer look

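The effects of 2 ions measured against the same controls differed by a test of the difference itself for 3 members, and the effect of 1 ion differed between months for 1. Stmn1 was higher in 56Fe than in 28Si livers at 1 month by 0.951 on the log2 scale. Ccne1 was higher in 16O than in 28Si livers at 1 month by 1.3 on the log2 scale. Tedc2 was higher in 56Fe than in 28Si livers at 2 months by 0.758 on the log2 scale, and its 56Fe effect was higher at 2 months than at 1 month by 1.09 on the log2 scale. Each of these calls was lost in some of the fits that leave out a mouse, and 348 tests of a member were made between ions and 360 of a change of effect. Single outlying mice were not tested in groups of 3.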

How the results depend on the processing

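Of 1135 comparisons of a result with its value under an alternative, 1026 stayed on the same side and 0 reversed, while 57 of 713 counts of members moved by more than 1.5 times and 52 of 422 single genes lost their call. The cause was not tested. Against control at 1 month, 56Fe gave 1 call with no scaling and with all 60 libraries, and 16O gave 0 with a filter at 1 RPKM and with none. For 56Fe over 28Si at 1 month the count was 2 with upper quartile scaling, filters at 1 or 0.1 RPKM or no trend, 0 with no scaling or no filter, and 7 by limma-voom. For 16O over 28Si at 1 month it was 2 with upper quartile scaling or a filter at 1 RPKM, 0 with no filter or only the 2 ions, and 4 by limma-voom. For 56Fe over 28Si at 2 months it was 0 with no scaling, a filter at 0.1 RPKM, no filter or no trend, and at 4 months 1 by limma-voom and with only the 2 ions. For 16O over 28Si at 4 months it was 1 with no scaling.

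With no scaling the counts were 22 for 4 against 2 months, and 10, 8, 7 and 8 for 12 against 1 month in 56Fe, 16O, 28Si and control livers. For 9 against 4 months it was 2 by limma-voom and 4 without the livers high in Ptprc, an alternative added after seeing the data. For 12 against 9 months it was 0 with a filter at 0.1 RPKM or none, and 1 with a pseudocount of 1 or without those livers. For 12 against 1 month 56Fe gave 5 by limma-voom and 6 without those livers, 16O gave 2 with only the 6 libraries of the 2 months, control gave 8 without those livers, and 28Si gave 1 with RLE scaling, upper quartile scaling, a filter at 1 RPKM, limma-voom, without those livers or with only 6 libraries. The 56Fe effect at 2 against 1 month gave 0 with no scaling or limma-voom and 2 without those livers, and at 9 against 4 months 1 by limma-voom and 2 without those livers. Members that varied with Mki67 numbered 20 of 35 with p-values adjusted over the members alone, which is no independent evidence since the members were chosen with results known, then 8 without those livers and 0, 0, 0, 0 and 7 within single months. Adjusted over all genes tested they numbered 5, and 0 without those livers.

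Leaving out a mouse at a time, counts ran from 0 to 1 for 16O against control at 1 month and for 56Fe and 16O against control at 9 months. They ran from 0 to 2 for 56Fe over 28Si and 0 to 3 for 16O over 28Si at 1 month, 0 to 1 and 0 to 2 for the same pairs at 2 months, and 0 to 1 for 56Fe over 28Si at 4 and 9 months. They were 10 to 12 for 4 against 2 months, 0 to 3 for 9 against 4 months, and 0 (without 16O mouse 2 of 12 months) to 7 (without 16O mouse 1) for 12 against 9 months. For 12 against 1 month they were 2 to 5 in 56Fe, 2 to 11 in 16O (11 without mouse 1 of 12 months), 0 to 1 in 28Si and 2 to 6 in control livers. Changes of effect gave 0 to 2 for 56Fe at 2 against 1 month, and 0 to 1 for 56Fe at 9 against 4 months and for 16O and 28Si at 12 against 9 months. With a replicate block no call or count changed (1 for 16O against control at 1 month, 0 in the other 14). Mice of the same number deviated together in all 3 pairs in 1 of 15 pairs of groups (16O at 12 months, r 0.335, 0.517 and 0.248). The numbers only follow the order of the samples, so these checks cannot show whether mice were paired. The numbers were not taken as pairs.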

Other observations

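Among cell cycle genes outside the 36, the growth arrest gene Gadd45a had an ion effect that differed between 12 and 9 months, by 1.31 after 56Fe (adjusted p = 0.0479, limma) and 1.36 after 16O (adjusted p = 0.0175) on the log2 scale, and both effects share the controls of those months. Wee1, the kinase that holds CDK1 inactive, rose at 12 against 1 month in 28Si livers by 2.82 (adjusted p = 8.14e-06) and in control livers by 1.75 (adjusted p = 0.00128). Of all 12731 genes 1828 rose and 1489 fell there in 28Si livers, and 2673 rose and 2488 fell in control livers. The 28Si livers of 1 month are also those of the Wee1 differences between ions, so these calls are not separate. Changes of Wee1 in 56Fe and 16O livers are not given here.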
